A study of Bos taurus with 8 samples.

Results

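The gene for the transcription factor HSF1 and the genes of 3 heat-inducible chaperones, HSPA1A, HSP90AA1 and HSPB1, were followed in blood mononuclear cells of cattle before and after heat exposure. The members were taken by their Ensembl identifiers, which are ENSBTAG00000020751 for HSF1, ENSBTAG00000025441 for HSPA1A, ENSBTAG00000006270 for HSP90AA1 and ENSBTAG00000011969 for HSPB1. They are 4 of the 24596 genes listed for every sample, and all 4 were among the 11711 genes that passed the filter on low counts. The animals were Tharparkar, an Indian zebu breed known for its adaptation to hot climates, and crossbred cattle, whose parent breeds the labels do not name. RNA sequencing was done at day 0, before heat, and at day 7, after 7 days of it. Per the labels, each of the 4 groups (crossbred at day 0, crossbred at day 7, Tharparkar at day 0 and Tharparkar at day 7) was made from RNA pooled from 5 animals. All samples carry the label heat stress, those of day 0 included. The labels used here give no age, sex, temperature or hour of sampling.

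Cells meet heat with a programme that protects proteins from unfolding. HSF1 is the master switch of this programme: it is kept inactive in unstressed cells by chaperones, including HSP90, and on heat it forms trimers, enters the nucleus and binds heat shock elements in the promoters of chaperone genes. Because this switch works on existing HSF1 protein, its messenger RNA level and its activity are separate quantities, and only the first was measured. HSPA1A is the classical inducible HSP70, which uses ATP to hold and refold unfolded proteins. HSP90AA1 encodes the inducible cytosolic HSP90, which matures client proteins such as kinases and steroid receptors. HSPB1 is a small heat shock protein that holds unfolding proteins without ATP and acts on the actin skeleton. In cattle, blood mononuclear cells are often used to read heat shock gene expression in live animals.

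There were 2 files for each group, labelled as replicates. In a check over all genes, the files of a group differed by less than the sampling noise that separates independent reads of 1 library: the observed median chi-square, divided by the expected one, was 0.0916 and 0.112 in the crossbred groups of days 0 and 7 and 0.0762 and 0.0799 in those of Tharparkar, where independent reads give 1. The 2 files were therefore counted as 1 sample, and their mean was used. Mean total counts lay between 5201318 for Tharparkar at day 7 and 8571528 for crossbred at day 0. Every comparison rests on n = 1 pool per group, so no valid test between groups can be made and the spread between animals is unknown. The 95% intervals given below are exact intervals for counting error only. Reads carry no molecular identifiers, so these intervals do not cover errors of library preparation.

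In crossbred cattle all 4 genes were lower at day 7 than at day 0. In Tharparkar all 4 had higher values at day 7. The change of HSF1 was within counting error with TMM scaling (explained below), a call that depends on the scaling. A value higher in Tharparkar and lower in crossbred was found in 31.2% of all genes, so these directions are common in the data. HSPA1A had by far the widest swing of the 4. It was 3.25-fold lower after heat in crossbred cattle and 1.66-fold higher in Tharparkar. HSF1, HSP90AA1 and HSPB1 moved in the same directions by less than 1 log2 unit (a 2-fold difference). This difference of 1 log2 unit or more is called past the limit below.

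Levels are given first as deposited TPM (transcripts per 1000000, corrected for gene length), the scale on which genes can be compared with each other. HSF1 was the least abundant of the 4 in 3 groups. In replicates 1 and 2 it had 42.31 and 41.79 TPM in crossbred at day 0 and 35.53 and 35.30 TPM in crossbred at day 7. In Tharparkar it had 29.62 and 29.58 TPM at day 0 and 35.94 and 36.64 TPM at day 7. Crossbred at day 0 was the highest group and Tharparkar at day 0 the lowest. The other two groups lay between them, close together. As a share of all counts (reads per 1000000, RPM) HSF1 had 71.8 (95% interval 66.3 to 77.8), 67.0 (60.1 to 74.3), 61.4 (56.0 to 67.0) and 55.2 (49.7 to 61.1) for crossbred day 0, Tharparkar day 7, crossbred day 7 and Tharparkar day 0. No neighbours in that order were separated beyond their counting intervals, while the highest and the lowest group were. The lowest place depended on the scale: after TMM scaling (explained below) the HSF1 level was 56.1 CPM in crossbred at day 7 and 59.4 CPM in Tharparkar at day 0.

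HSPA1A, the inducible HSP70, separated all 4 groups. It had 77.22 and 78.43 TPM in crossbred at day 0, and 25.13 and 25.71 TPM in crossbred at day 7. It had 32.46 and 33.10 TPM in Tharparkar at day 0, and 58.80 and 56.56 TPM in Tharparkar at day 7. Crossbred at day 0 was the highest and crossbred at day 7 the lowest. HSPA1A had an RPM of 126 (119 to 134) in crossbred at day 0, 101 (92.7 to 110) in Tharparkar at day 7, 58.0 (52.4 to 64.1) in Tharparkar at day 0 and 41.8 (37.5 to 46.6) in crossbred at day 7, with no overlap between neighbours. The highest group mean was 3.06 times the lowest in TPM. The largest gap between the files of 1 group was 4.94% of their mean count. In crossbred at day 7 the mean TPM of HSPA1A, 25.42, was below that of HSF1, 35.42, which held in no other group.

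HSP90AA1 was abundant, and the steadiest of the 4 in relative TPM. On the TMM scale HSF1 was the steadiest, with a span of 0.34 log2 units against 0.54 for HSP90AA1. The TPM values of HSP90AA1 were 319.32 and 320.98 in crossbred at day 0 and 261.46 and 262.98 in crossbred at day 7. In Tharparkar they were 265.49 and 266.37 at day 0 and 318.85 and 318.62 at day 7. In TPM, crossbred at day 0 and Tharparkar at day 7 were high and the other pools low, with a highest to lowest ratio of 1.22 between group means. After TMM scaling (explained below) the order of the pairs held, but the day 0 pools of the breeds were not separated beyond counting error: HSP90AA1 had 633 CPM in crossbred at day 7, 813 in Tharparkar at day 0, 825 in crossbred at day 0 and 921 in Tharparkar at day 7. The order of the highest pools depended on the scale: mean TPM was 320 in crossbred at day 0 and 319 in Tharparkar at day 7, while HSP90AA1 had an RPM of 833 (814 to 853) and 897 (872 to 923). Counts of HSP90AA1 were not whole numbers in any of the 8 files, which arises where reads are divided between similar genes, so its level is uncertain to that extent. Counts of HSF1, HSPA1A and HSPB1 were whole, within 1e-06, in all 8 files. The mammalian genome holds close relatives of HSPA1A, and how the counting treated reads that fit more than 1 of them is not given in the sources used here.

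HSPB1 was the most abundant of the 4 per length in every file. It had 706.60 and 709.69 TPM in crossbred at day 0 and 489.05 and 492.97 TPM in crossbred at day 7. It had 568.53 and 571.60 TPM in Tharparkar at day 0 and 725.67 and 724.61 TPM in Tharparkar at day 7. Tharparkar at day 7 and crossbred at day 0 were again the high groups, and crossbred at day 7 was the lowest. HSPB1 had an RPM of 484 (465 to 503), 437 (423 to 451), 385 (370 to 400) and 308 (296 to 320) for Tharparkar day 7, crossbred day 0, Tharparkar day 0 and crossbred day 7, with no overlap between neighbours. HSPB1 is the only 1 of the 4 genes with 2 annotated transcripts. Its deposited length, a mean weighted by transcript, stayed between 822.13 and 823.95 bases over the 8 files.

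**Figure D1:**
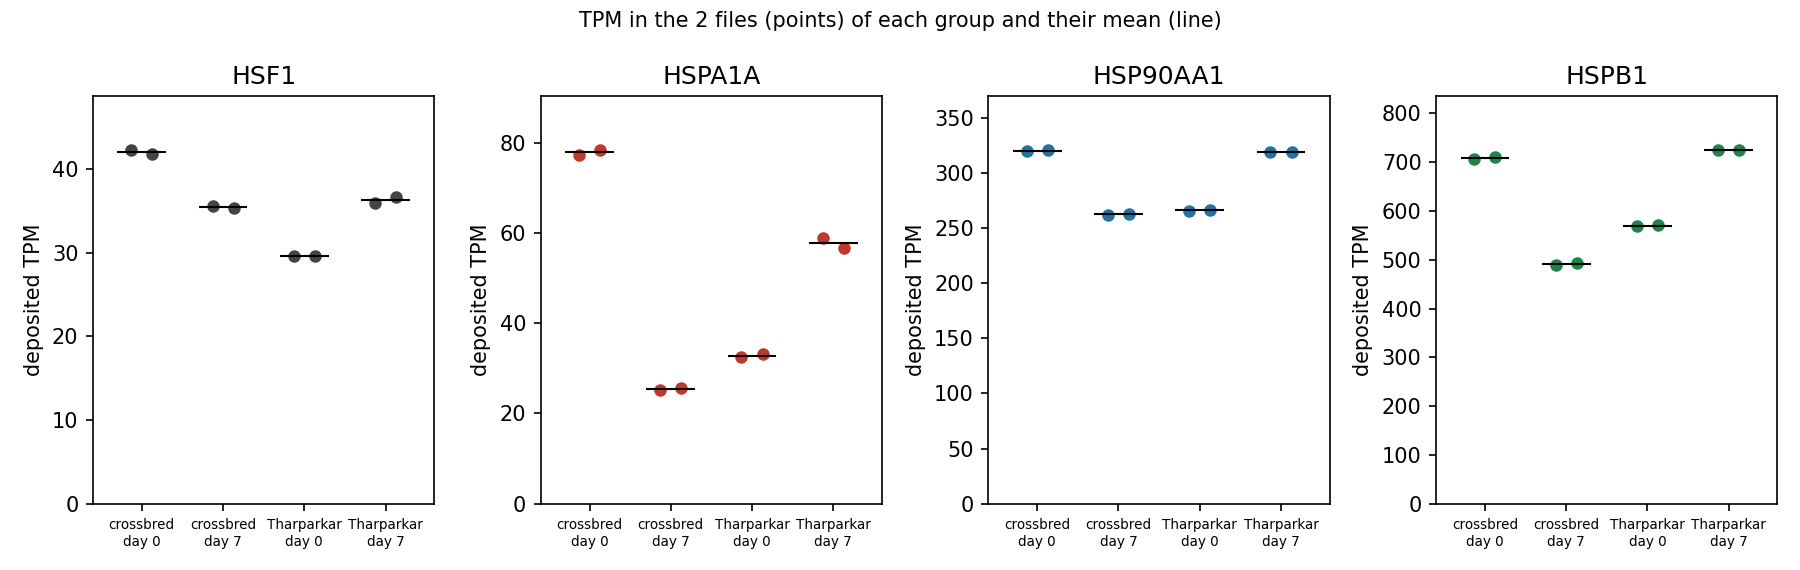
Deposited TPM (vertical axes, from 0) of HSF1, HSPA1A, HSP90AA1 and HSPB1 in the 4 groups; points are the 2 files of a group, and the line is their mean. Crossbred at day 0 and Tharparkar at day 7 stand above the other groups for HSPA1A, HSP90AA1 and HSPB1, most widely for HSPA1A. For HSF1, Tharparkar at day 7 (mean 36.29 TPM) is nearly level with crossbred at day 7 (35.42 TPM), and their counting intervals overlap.

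The first comparison was the change over 7 days in crossbred cattle. Differences are in log2 CPM (counts per 1000000 after TMM scaling, which corrects totals for composition). Of all 11711 genes, 12.8% were past the limit in either direction. Of the 4 genes, 1 was past it, HSPA1A, with 1081.5 mean counts at day 0 and 331.5 at day 7. Its log2 fold change was -1.70 (95% interval -1.89 to -1.53), and 161 genes had a lower value. Among the 7769 genes with a mean CPM of at least 10, 7.34% were past the limit in either direction.

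HSPB1 followed in size, with a log2 fold change of -0.62 (-0.69 to -0.55) from 3745.5 to 2441.5 mean counts. HSP90AA1 had -0.38 (-0.43 to -0.33), from 7143 to 5490 mean counts. HSF1 had -0.34 (-0.52 to -0.17), from 615.5 to 486.5 mean counts, and -0.22 with deposited FPKM. All 4 intervals lay below 0, but the share of all genes with such an interval was not counted. By sign alone, all 4 genes and 49.9% of all genes had a change below 0 in this comparison. The median over all genes was 0.0018 against a median of -0.50 over the 4. Beside the other genes the 3 smaller changes lay nearer the middle: 70.2% of genes changed by less than HSPB1, 49.6% by less than HSP90AA1 and 45.6% by less than HSF1, against 97.1% for HSPA1A.

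In Tharparkar none of the 4 genes was past the limit, where 8.28% of all genes were. HSPA1A had the largest difference, a log2 fold change of 0.73 (0.54 to 0.93), with 389 mean counts at day 0 and 526 at day 7 although the day 7 library was the smaller one. Of all genes, 83.9% changed by less. HSPB1 had 0.26 (0.18 to 0.34) and HSP90AA1 had 0.18 (0.12 to 0.24), both above 0 beyond counting error. HSF1 had 0.21 with an interval from -0.0048 to 0.43, so with TMM scaling it did not differ from 0 beyond counting error. Its change was 0.28 with total counts, 0.29 with deposited TPM and 0.28 with deposited FPKM, so this call depends on the scaling. Of all genes, 49.1% had a change above 0, and the median was -0.011 over all genes and 0.24 over the 4.

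The question of the series was whether the breeds differ in their response, and the difference of the 2 changes was taken as that measure. It was 2.43 log2 units for HSPA1A (2.18 to 2.71), the Tharparkar change being the higher, and 27.0% of all genes were past the limit in either direction. A value above that of HSPA1A was found for 201 genes. It was 0.88 (0.77 to 0.99) for HSPB1, 0.56 (0.49 to 0.64) for HSP90AA1 and 0.55 (0.28 to 0.83) for HSF1. By sign alone, all 4 values were above 0, as were those of 49.9% of all genes, and 1 of the 4 genes was past the limit. The 4 intervals lay above 0 as well, but the share of all genes with such an interval was not counted. A change above 0 in Tharparkar together with one below 0 in crossbred, which all 4 genes had, was found in 31.2% of all genes. The changes of the breeds share no library, but with 1 pool in each group a difference between breeds and a difference between single pools cannot be told apart. In such mixed cell samples, fewer cells of a type that expresses a gene and less RNA per cell cannot be told apart either.

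**Figure D2:**
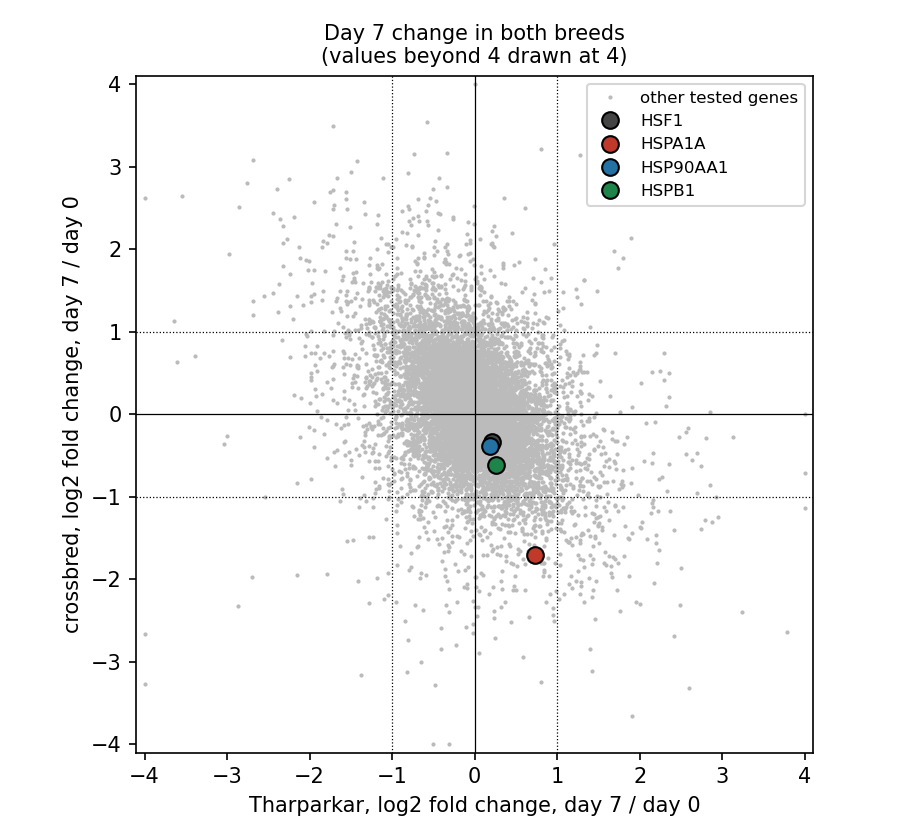
Log2 fold change from day 0 to day 7 in Tharparkar (horizontal) and crossbred (vertical) cattle for the 11711 tested genes (grey) and the 4 genes (large points); dotted lines mark 1 log2 unit. All 4 genes lie in the lower right part, HSPA1A at 0.73 and -1.70 and the others nearer the centre.

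Between the breeds before heat, HSPA1A was 2.00-fold lower in Tharparkar, a log2 difference of -0.9987 (-1.17 to -0.83). That is just short of the limit, which 7.02% of all genes passed, and 12 of 18 alternative settings put it past the limit. Of the 18, 8 left out a single file, which leaves nearly the same reads, and 2 of these 8 put it past. Every alternative scaling, filter, prior count or fit put it past, with values down to -1.23. HSF1 was lower too, by -0.26 (-0.45 to -0.07). HSP90AA1 at -0.022 (-0.075 to 0.030) and HSPB1 at -0.064 (-0.14 to 0.0080) did not differ from 0 beyond counting error with TMM scaling. With deposited TPM these 2 differences were -0.27 and -0.31, and that of HSF1 was -0.50, so the breed differences of these 3 genes before heat depend on the scaling. All 4 differences were below 0, as were 49.7% of those of all genes.

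At day 7 HSPA1A had the opposite order of the breeds. It was 2.70-fold higher in Tharparkar, with a log2 difference of 1.43 (1.24 to 1.64), past the limit as were 14.9% of all genes. HSPB1 was higher by 0.82 (0.74 to 0.90) and HSP90AA1 by 0.54 (0.48 to 0.60), which was 0.28 with deposited TPM. HSF1 was higher by 0.29 (0.09 to 0.49), but by only 0.035 with deposited TPM. All 4 were above 0, as were 50.2% of all genes. Each breed comparison shares its libraries with the day comparisons above, so these values restate the same 4 levels of a gene from another side.

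**Figure D3:**
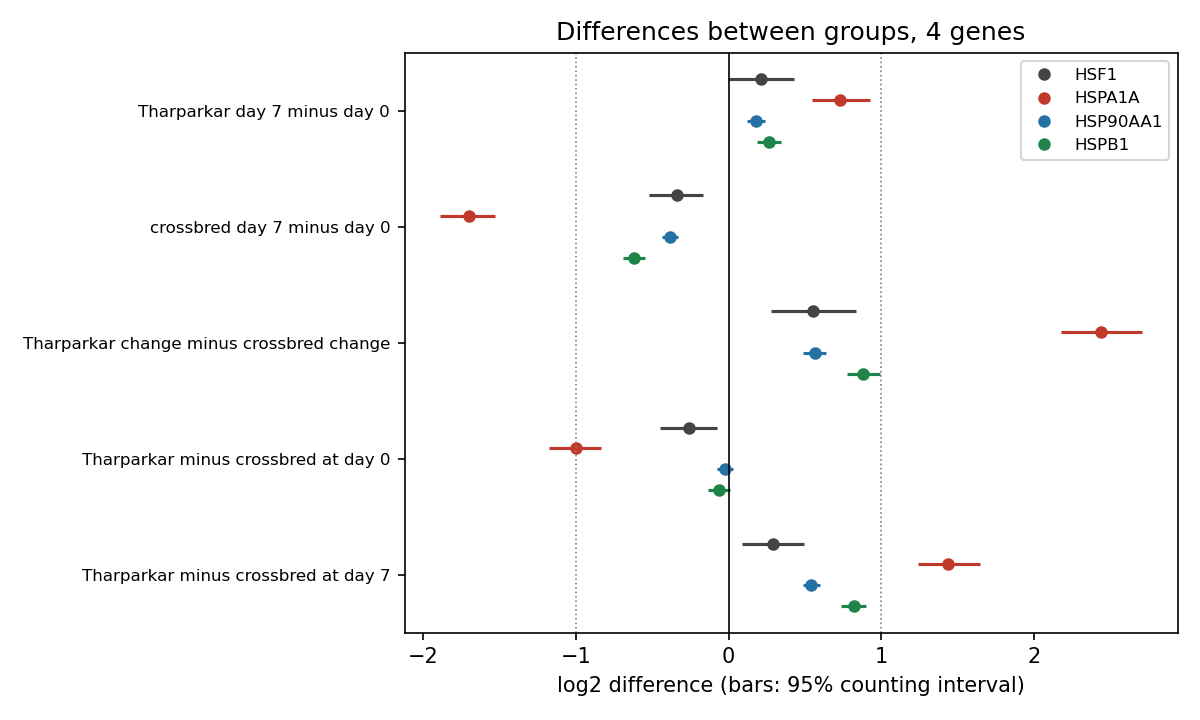
Log2 differences (horizontal axis) of the 4 genes in the 5 comparisons; points are differences of TMM-scaled log2 CPM, bars are 95% counting intervals, and dotted lines mark 1 log2 unit. HSPA1A lies farthest from 0 in every comparison, and the signs of the breed difference at day 0 and at day 7 are opposite for all 4 genes, although HSP90AA1 and HSPB1 at day 0 are within counting error of 0.

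On the TMM scale, crossbred at day 0 and Tharparkar at day 7 both lay above crossbred at day 7 and Tharparkar at day 0 for each of the 4 genes, an order found in 23.2% of all genes. For HSF1, HSP90AA1 and HSPB1 the lower high library and the higher low one did not differ beyond counting error. The reverse order was found in 24.1%. The gap between the lower of the high libraries and the higher of the low ones was 0.73 log2 units for HSPA1A, a size reached or exceeded by 240 genes counting HSPA1A. It was 0.21 for HSF1, 0.064 for HSPB1 and 0.022 for HSP90AA1. A gap of at least 1 log2 unit, which none of the 4 genes had, was found in 0.862% of all genes. The span from the lowest to the highest library was 1.70 log2 units for HSPA1A, wider than in 93.1% of genes. The span of 0.34 for HSF1 was wider than in 15.4%, that of 0.54 for HSP90AA1 than in 38.4% and that of 0.82 for HSPB1 than in 64.1%, with a median of 0.65 over all genes.

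Ratios between the genes within a library need no scaling between libraries. HSPA1A had 1.83 and 1.88 times the TPM of HSF1 in the files of crossbred at day 0, and 0.707 and 0.728 times at day 7. In Tharparkar the ratio was 1.10 and 1.12 at day 0 and 1.64 and 1.54 at day 7. From day 0 to day 7 the count ratio of HSPA1A to HSF1 thus changed by -1.37 log2 units (-1.61 to -1.11) in crossbred and by 0.52 (0.23 to 0.81) in Tharparkar. Relative to HSF1, HSPA1A fell in crossbred and rose in Tharparkar. The ratio alone does not tell which gene moved.

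HSP90AA1 kept nearly the same ratio to HSF1 over time. Crossbred cattle had a log2 change of the count ratio of -0.040 (-0.22 to 0.14) and Tharparkar one of -0.032 (-0.25 to 0.19), neither of them different from 0 beyond counting error. The ratio differed more between breeds, at 7.61 and 7.40 in mean TPM at days 0 and 7 in crossbred and 8.98 and 8.78 in Tharparkar. As a log2 difference of count ratios, Tharparkar was higher by 0.24 (0.04 to 0.44) at day 0 and by 0.25 (0.04 to 0.46) at day 7. For HSPB1 the ratio to HSF1 was 16.8 in crossbred at day 0 and 13.9 at day 7, and 19.26 and 19.98 in Tharparkar. In crossbred cattle the log2 change of that count ratio was -0.28 (-0.46 to -0.09). In Tharparkar, at 0.050 (-0.18 to 0.28), it did not differ from 0 beyond counting error. Against HSP90AA1, HSPA1A lost ground in crossbred and gained it in Tharparkar: the count ratio of HSP90AA1 to HSPA1A changed by 1.33 log2 units (1.14 to 1.51) and by -0.55 (-0.76 to -0.35).

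**Figure D4:**
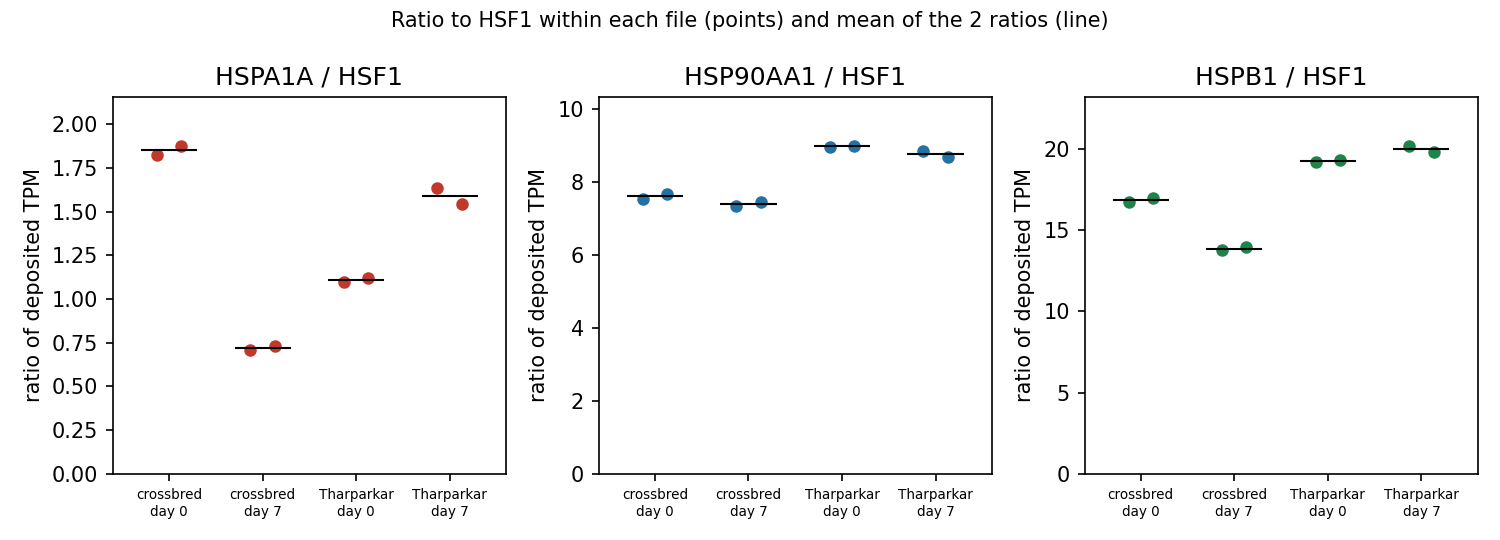
Ratio of the deposited TPM of HSPA1A, HSP90AA1 and HSPB1 to that of HSF1 within each file (vertical axes, from 0) in the 4 groups; points are files and lines the mean of the 2 ratios. The HSPA1A ratio goes from 1.83 and 1.88 to 0.707 and 0.728 between the days in crossbred, while the HSP90AA1 ratio stays near its level within each breed.

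The place of each gene among all genes shows the same contrast. Ranked by mean TPM from the most abundant, HSPA1A stood at 1428 in crossbred at day 0 and at 4009 at day 7, and at 2740 and 1733 in Tharparkar. HSPB1 stayed between 208 and 267, HSP90AA1 between 358 and 433 and HSF1 between 2530 and 3077. The chaperone genes HSPB1 and HSP90AA1 were thus strongly expressed in every pool, before heat as after it.

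The genes with the most similar pattern were sought among 5210 other genes with a mean CPM of at least 20 and whole counts in all files. Likeness was the root mean square difference of log2 CPM over the 4 libraries, after each gene was centred on its own mean. The measure depends on the span of a gene, since a gene with a narrow span has more neighbours within a fixed distance. Of these genes, 454 lay within 0.1 log2 units of HSF1, 455 of HSP90AA1 and 134 of HSPB1. HSPA1A, with the widest span of the 4, had 1 gene that near, ENSBTAG00000031851 at 0.097, which the files pair with no gene name. It had 4952.5, 1825.5, 1877 and 2695 mean counts in crossbred at days 0 and 7 and Tharparkar at days 0 and 7. Its log2 fold changes were 0.82 in Tharparkar and -1.44 in crossbred. The gene nearest to HSPB1 was ENSBTAG00000007390 at 0.0079, with log2 fold changes of 0.25 and -0.64. Among the 4 members, HSP90AA1 and HSPB1 were the closest pair at 0.11, and HSF1 and HSPA1A the most distant at 0.52.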

How the data were processed

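Libraries were made from total RNA of integrity number above 8, per the labels' protocols, and sequenced on an Illumina instrument. The submitters' processing notes name Bowtie2 and RSEM. Their versions and settings, the genome build and the annotation are not given in the sources used here. The authors deposited, per the file headers, expected counts (estimated reads per gene), TPM, FPKM (per kilobase and 1000000 reads), and gene lengths and effective lengths in bases; of the lengths only that of HSPB1 is reported.

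The members and lists were chosen with earlier results of these data known. Expected counts of the 2 files of a group were averaged, since the median chi-square ratio (genes with at least 20 counts) was below 1.5. The fit used R 4.3.3 with edgeR 4.0.16 (filterByExpr, TMM factors between 0.930 and 1.09, prior count 2, all 11711 genes). The limit was an absolute log2 fold change of 1. Intervals of a level or a ratio of 2 counts are exact Clopper-Pearson intervals, and those of a ratio of 4 counts are exact conditional ones, both on rounded counts. DESeq2 1.42.0 served for alternatives. Genes named are the 4 members and, since 0 of 24596 identifiers matched a symbol, only the nearest patterns of the 2 members with the largest Tharparkar change. The lists of other heat shock genes, reference genes and cell type markers are lists of symbols, so they were not evaluated, and the cell type was not checked against markers. Alternatives were other scalings, filters and prior counts, deposited TPM and FPKM (pseudocount 0.5), leaving out each file, and edgeR and DESeq2 fits with files as replicates, of which only fold changes are used. The steps were tested on simulated data with planted 4-fold changes, of which the limit recovered 100%. Counting intervals held the true value for 93.5% of 200 changed genes. Smaller changes were not simulated, so the simulation does not show how well they are recovered.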

Additional observations from a re-analysis of the deposited data

Results flagged for a closer look

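The day 7 change had opposite signs in the breeds for all 4 genes, which was the reason for a closer look. With TMM scaling the Tharparkar change of HSF1 was within counting error, so an opposite direction is not shown for it on that scale. This call depends on the scaling, and the change was 0.28 with total counts. The files of a group are nearly the same reads, so their matching signs add nothing to this. The change in Tharparkar minus that in crossbred was 2.43 log2 units for HSPA1A, 0.88 for HSPB1, 0.56 for HSP90AA1 and 0.55 for HSF1. The difference has no valid test, since each group is 1 pool; fits that took the files as replicates understate the error. Such opposite signs, with the change above 0 in Tharparkar, were found in 31.2% of all genes.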

How the results depend on the processing

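The 20 log2 differences of the 4 genes (4 genes in 5 comparisons) kept their sign under each of 18 alternatives. Of the 18, 8 left out 1 of 2 files that are nearly the same reads, and the fits with files as replicates used those files too. These alternatives could hardly change a sign, and a kept sign does not settle a difference that is within counting error. A value counts as moved below when it left its counting interval. Against TMM, total counts shifted the median of all genes by 0.11 in crossbred, -0.12 between breeds at day 0 and -0.16 at day 7, and deposited TPM shifted the breed comparisons by -0.24 and -0.25. With total counts, HSP90AA1 was 0.25 in Tharparkar, -0.27 in crossbred, -0.14 between breeds at day 0 and 0.37 at day 7, and HSPB1 -0.50 in crossbred, -0.18 and 0.65 between breeds. With FPKM, HSP90AA1 was 0.25, -0.27, -0.14 and 0.37, and HSPB1 -0.51 in crossbred, -0.19 and 0.65 between breeds. With TPM, HSP90AA1 was 0.26, -0.29, -0.27 and 0.28 and HSPB1 0.35, -0.53, -0.31 and 0.56, in the order Tharparkar, crossbred, day 0 and day 7. Between breeds TPM gave HSF1 -0.50 at day 0 and 0.035 at day 7, and HSPA1A -1.23 and 1.17. The number of the 4 genes past the limit between breeds at day 0 went from 0 to 1 (HSPA1A) with DESeq2 size factors, total counts, no filter, a mean CPM of at least 10, a prior count of 0.5, TPM, FPKM, and edgeR or DESeq2 with files as replicates. When single files were left out it was 0 to 1: it was 1 without replicate 1 of crossbred day 0 or replicate 2 of Tharparkar day 0. Leaving out a file moved 0 of the log2 differences. That outcome was nearly fixed in advance, because the files of a group are nearly the same reads. Without a filter, 1624 genes were past the limit in Tharparkar and 1368 between breeds at day 0, against 970 and 822. With a mean CPM of at least 10 the numbers were 280 in Tharparkar and 570 in crossbred (against 1503). They were 1556 for the difference of changes (against 3161), 225 between breeds at day 0 and 702 at day 7 (against 1741). Fewer genes were tested, 7769 against 11711, but in crossbred the share past the limit fell too, from 12.8% to 7.34%. For the scalings and this filter, the cause was not tested.

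With the replicate number as a block in edgeR, HSPA1A was 0.74 in Tharparkar and -1.71 in crossbred, and the number of the 4 genes past the limit between breeds at day 0 was 1. The numbers do not pair the samples: same-numbered files of different groups had deviations correlated between -0.021 and 0.10 over 6 pairs of groups. The files of a group are nearly the same reads, so fits with files as replicates understate even counting error, and only their fold changes are given. Counts of other heat shock genes under each setting were not run. With TMM scaling, the Tharparkar change of HSF1 and the day 0 breed differences of HSP90AA1 and HSPB1 lay within counting error. With total counts they were 0.28, -0.14 and -0.18, so these calls depend on the scaling.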

Other observations

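The share of HSPA1A in the summed mean TPM of the 4 genes was 6.78% in crossbred at day 0, 3.12% in crossbred at day 7, 3.65% in Tharparkar at day 0 and 5.07% in Tharparkar at day 7. HSPB1 supplied between 60.3% and 63.7% of the sum in every pool. HSP90AA1 supplied between 27.9% and 32.2%, with the highest share in crossbred at day 7. The share of HSF1 lay between 3.19% and 4.35%, and was likewise highest in crossbred at day 7.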
